A study of Homo sapiens with 18 samples.

Results

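The contrast described here asks whether the knockout changed how cells discriminate between cadmium and zinc: for each gene, the change from zinc to cadmium in cells lacking LATS1 and LATS2 minus the same change in wild-type cells, called the interaction below. Its groups follow from the genotype and metal labels and not from measured values. Earlier results of these data were known, however, when the contrast, the gene lists and the tests were chosen. The contrast uses 12 of the 18 libraries of the series, the 3 replicates of each metal-treated group, without the water-treated libraries. Of 58336 genes in the count table, 19009 passed the filter on low counts and were tested. The groups were LATS1/2-DKO cells in 50 uM CdCl2, LATS1/2-DKO cells in 250 uM ZnCl2, wild-type cells in 50 uM CdCl2 and wild-type cells in 250 uM ZnCl2, each kept in the metal for 4 h. Both genotypes are HEK293A, an adherent human embryonic kidney line. The doses differ 5-fold by design, so a cadmium-zinc difference compares these doses and not the metals at equal exposure. The labels give neither the position of the knockout's edits nor the number of clones, so the lost kinases and other differences between the cell lines cannot be told apart. The replicates are called biological, but separate cultures are not stated, and p-values therefore measure the spread between these libraries.

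Total counts per library were 25796202 to 36997417, and levels are given in CPM (counts relative to the library's total, after trimmed-mean scaling). Coordinates are from GENCODE 29 on GRCh38. LATS1 (ENSG00000131023, chromosome 6, 149658153 to 149718256) had 50.0, 53.1 and 53.4 CPM in cadmium-treated knockout libraries and 49.5, 47.6 and 47.8 CPM in zinc-treated knockout libraries, against 89.2, 92.5 and 93.7 CPM in cadmium-treated and 78.1, 77.1 and 83.0 CPM in zinc-treated wild-type libraries. LATS2 (ENSG00000150457, chromosome 13, 20973032 to 21061547) had 25.2, 23.4 and 24.99 CPM and 37.5, 35.4 and 39.8 CPM in cadmium- and zinc-treated knockout, against 40.5, 37.6 and 43.1 CPM and 49.4, 43.7 and 48.1 CPM in cadmium- and zinc-treated wild type. Both mRNAs were lower in every library labelled knockout than in any wild-type library of the same metal, and reads remained throughout. Without the edit positions these levels do not check the labels. The 10 HEK293 markers summed to 2943 to 3215 CPM in cadmium-treated and 3053 to 3115 CPM in zinc-treated knockout, against 1098 to 1232 CPM and 1111 to 1226 CPM in cadmium- and zinc-treated wild type, with KRT8 the most abundant, and the blood markers MS4A1 and HBB were at 0. One library, replicate 3 of zinc-treated wild type, lay away from its group: chi-square values of its counts against replicates 1 and 2, divided by their degrees of freedom, were 4.96 and 5.04, where the other within-group pairs gave 1.65 to 3.59. Many of the counts and calls that this library moves are given with and without it. Some other list counts also shifted without it and are given with all libraries only.

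LATS1 and LATS2 are the kinases at the end of the Hippo cascade. They phosphorylate the coactivators YAP and TAZ, which keeps these out of the nucleus, where they would otherwise work with TEAD factors on genes such as CCN1, CCN2 and ANKRD1. Zinc is an essential metal that cells buffer with metallothioneins and move with SLC30 exporters and SLC39 importers, while cadmium is a toxic metal with no known function in human cells that binds thiols and displaces zinc. Both metals are known to engage the metal sensor MTF1, the heat shock factor HSF1, the oxidative stress factor NRF2, and MAP kinase signalling, which drives immediate early genes through serum response factor and its ternary complex partners. Cadmium is also known to induce the integrated stress response, in which ATF4 drives genes of amino acid supply and of translation control.

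Promoters are shown for 5 genes that stand for the stress programmes described below, from RefSeq (GRCh38.p14), each running from 250 bases before to 50 bases after the annotated start, 5′ to 3′ on the gene's strand. Capitals mark matches to the motif searched on both strands: the CArG box bound by serum response factor in EGR1 (chr5:138465229-138465528, plus strand), the CARE element TGATGNAA bound by ATF4 with C/EBP partners in CHAC1 (chr15:40953221-40953520, plus strand) and ASNS (chr7:97872359-97872658, minus strand), the heat shock element (HSE) in HSPA6 (chr1:161524290-161524589, plus strand), and the TEAD core GGAATG in ANKRD1 (chr10:90921038-90921337, minus strand).
EGR1: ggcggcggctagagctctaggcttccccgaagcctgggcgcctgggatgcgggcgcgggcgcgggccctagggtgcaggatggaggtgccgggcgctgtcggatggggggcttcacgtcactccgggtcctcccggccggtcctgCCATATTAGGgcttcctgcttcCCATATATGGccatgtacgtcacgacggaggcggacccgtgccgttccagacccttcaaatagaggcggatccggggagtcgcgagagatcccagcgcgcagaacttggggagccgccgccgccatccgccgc
CHAC1: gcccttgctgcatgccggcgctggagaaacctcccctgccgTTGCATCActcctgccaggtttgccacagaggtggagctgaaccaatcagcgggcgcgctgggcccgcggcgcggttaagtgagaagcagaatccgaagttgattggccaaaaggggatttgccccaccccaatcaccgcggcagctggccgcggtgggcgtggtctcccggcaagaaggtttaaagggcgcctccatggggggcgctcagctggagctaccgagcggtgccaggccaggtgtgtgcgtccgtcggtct
ASNS: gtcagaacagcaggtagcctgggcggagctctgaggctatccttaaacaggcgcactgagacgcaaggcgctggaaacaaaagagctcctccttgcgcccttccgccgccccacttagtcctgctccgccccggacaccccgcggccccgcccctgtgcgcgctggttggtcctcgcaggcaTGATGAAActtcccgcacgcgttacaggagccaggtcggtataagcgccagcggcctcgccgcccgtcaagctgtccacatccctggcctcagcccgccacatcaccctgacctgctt
HSPA6: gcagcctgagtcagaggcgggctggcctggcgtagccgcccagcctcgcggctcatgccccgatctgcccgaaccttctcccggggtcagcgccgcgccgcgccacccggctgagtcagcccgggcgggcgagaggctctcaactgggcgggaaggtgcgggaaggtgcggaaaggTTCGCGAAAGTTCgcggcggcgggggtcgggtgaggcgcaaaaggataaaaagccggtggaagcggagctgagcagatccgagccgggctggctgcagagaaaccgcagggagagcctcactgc
ANKRD1: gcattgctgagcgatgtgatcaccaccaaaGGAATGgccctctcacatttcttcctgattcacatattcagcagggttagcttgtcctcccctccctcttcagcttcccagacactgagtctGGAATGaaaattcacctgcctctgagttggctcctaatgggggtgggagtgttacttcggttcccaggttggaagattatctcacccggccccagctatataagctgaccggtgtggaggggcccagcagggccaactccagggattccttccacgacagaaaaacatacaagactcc
EGR1 held 2 CArG boxes, at -105 to -96 and -83 to -74 from the start. CHAC1 and ASNS held 1 CARE each, at -209 to -202 and at -68 to -61, HSPA6 held 1 heat shock element at -74 to -62, and ANKRD1 held 2 TEAD cores, at -220 to -215 and -128 to -123. None of these matches overlapped a match of another motif searched. Of 35116 promoters of this length, 1.29% held a CArG box, 3.62% a CARE, 0.49% a heat shock element and 14% a TEAD core. A match is a string of letters and not evidence of binding. In the lists below matches were counted among called members only, and many lists consist of known targets of the factor in question. Such shares are descriptions, and a relation between motif and interaction was not tested.

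Metal preference differed between the genotypes at 4323 of 19009 genes, 22.7% of those tested, by the quasi-likelihood test of edgeR (Benjamini-Hochberg adjusted p below 0.05). The interaction was higher, that is, tilted towards cadmium in knockout relative to wild type, at 2109 genes (11.1%). It was lower, tilted towards zinc in the same sense, at 2214 genes (11.6%). Most of these differences were small: the median size among them was 0.33 on the log2 scale, and 71.5% lay under 0.5. A 2-fold size was reached by 162 higher and 265 lower genes, many of them barely detected. Their median levels were 0.785 CPM (higher) and 1.32 CPM (lower), against 43.2 and 35.1 CPM for all higher and all lower genes. Cadmium against zinc passed the same test at 9138 genes (48.1%) in knockout and at 10025 genes (52.7%) in wild type. The log2 changes of the genotypes correlated across the 11277 genes of at least 5 CPM with a Pearson r of 0.743, a description in which genes are not independent replicates.

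The called genes fell into several patterns. Of the 4323 genes, 1562 passed in each genotype with the same sign, and of these 1087 had the larger cadmium-zinc change in wild type and 475 in knockout. A further 1437 genes passed in wild type alone and 858 in knockout alone, and 57 passed in neither. The remaining 409 genes, 9.46%, passed in each genotype with opposite signs, 174 with cadmium above zinc in knockout and below it in wild type, and 235 the other way round. The change was larger in wild type at 2795 of the 4323 genes (64.7%). In a principal component analysis of the 12 libraries, the first component (67.2% of the variance) separated the genotypes, the second (18.1%) the metals, and the third (3.49%) had one sign in cadmium-treated knockout and zinc-treated wild type and the other sign in the remaining groups.

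**Figure D1:**
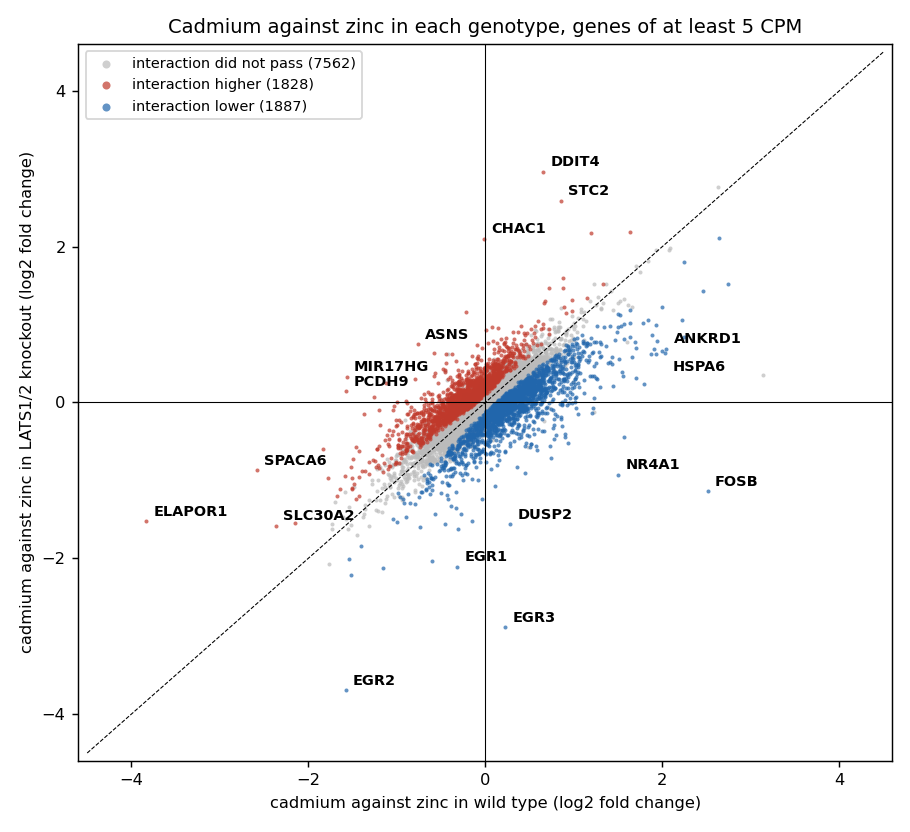
Log2 fold change of cadmium against zinc in LATS1/2 knockout (vertical) and in wild type (horizontal) for 11277 genes of at least 5 CPM, with the 1828 genes of higher and 1887 of lower interaction in colour and the line of equal change dashed. FOSB and NR4A1 lie in the quadrant where cadmium is below zinc in knockout and above it in wild type, and ASNS lies in the opposite one.

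Immediate early genes, which are transcribed within minutes of a signal without new protein synthesis, tilted towards zinc in knockout. Of 30 listed genes, all tested, 24 had a lower and 2 a higher interaction, against 11.6% and 11.1% of all genes, and the list's median was -0.73 beside a median of 0.014 over all genes. The median log2 change from zinc to cadmium was -0.86 in knockout and 0.19 in wild type. In bulk RNA a change in every cell and a change in a share of the cells cannot be told apart, nor can fewer cells of a kind and less RNA per cell. Without replicate 3 of zinc-treated wild type the counts were again 24 and 2, with a median of -0.68. The 2 members with a higher interaction were MCL1, an inhibitor of apoptosis (0.27 ± 0.050), and IER5, a regulator of heat shock factor (0.34), while JUN, FOSL2, NR4A2 and KLF2 did not pass. JUN changed by 1.19 from zinc to cadmium in knockout and by 1.31 in wild type, an interaction of -0.11 ± 0.047 (SE).

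FOSB (ENSG00000125740, chromosome 19, 45467995 to 45475179), a subunit of the AP-1 transcription factor, had 12.8, 11.9 and 13.3 CPM in cadmium-treated knockout and 25.1, 29.9 and 29.1 CPM in zinc-treated knockout. In wild type it had 339, 312 and 338 CPM in cadmium and 51.0, 52.5 and 69.6 CPM in zinc. Cadmium thus gave the lowest level of the 4 groups in knockout and the highest in wild type, with no overlap between groups. The log2 change from zinc to cadmium was -1.14 ± 0.098 in knockout and 2.51 ± 0.068 in wild type, and the interaction of -3.65 ± 0.12 (SE; adjusted p = 8.02e-19, edgeR quasi-likelihood test) was the lowest among called genes with a gene symbol and at least 5 CPM.

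The 4 zinc finger factors of the EGR family, which bind GC-rich sites, all had a lower interaction. EGR1 (ENSG00000120738, chromosome 5, 138465490 to 138469315) had 91.4, 76.7 and 82.7 CPM in cadmium-treated knockout and 326, 395 and 365 CPM in zinc-treated knockout, against 761, 710.5 and 743 CPM in cadmium-treated and 914, 914 and 937 CPM in zinc-treated wild type. The cadmium-treated knockout libraries were the lowest by a wide margin, and cadmium was below zinc in both genotypes, by -2.11 and -0.32 on the log2 scale in knockout and wild type, an interaction of -1.79 ± 0.070 (adjusted p = 3.28e-17, edgeR quasi-likelihood test). EGR2 (ENSG00000122877, chromosome 10, 62811996 to 62919900) had 0.975, 0.888 and 1.01 CPM and 11.3, 14.3 and 12.02 CPM in cadmium- and zinc-treated knockout, against 6.29, 6.42 and 6.37 CPM and 20.5, 18.3 and 18.2 CPM in cadmium- and zinc-treated wild type. Here too cadmium lay below zinc in both genotypes, and further below in knockout (interaction -2.12 ± 0.17). EGR4 was low throughout, at 0.0181 and 0.178 CPM in cadmium- and zinc-treated knockout and 1.34 and 0.263 CPM in cadmium- and zinc-treated wild type (interaction -5.15).

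EGR3 (ENSG00000179388, chromosome 8, 22687659 to 22693302) had 5.74, 4.55 and 5.09 CPM in cadmium-treated and 33.9, 42.7 and 38.5 CPM in zinc-treated knockout. In wild type it had 17.0, 16.8 and 16.6 CPM in cadmium and 14.7, 13.4 and 15.1 CPM in zinc. Zinc-treated knockout was the highest group and cadmium-treated knockout the lowest, with the wild-type groups close together between them (interaction -3.11 ± 0.12, adjusted p = 2.29e-17, edgeR quasi-likelihood test). NR4A1 (ENSG00000123358, chromosome 12, 52022832 to 52059507), an orphan nuclear receptor, had 79.5, 72.4 and 70.3 CPM in cadmium-treated and 142, 146 and 137 CPM in zinc-treated knockout, against 136, 124 and 137 CPM in cadmium-treated and 52.7, 46.0 and 41.4 CPM in zinc-treated wild type. The metals traded places: cadmium was -0.93 ± 0.055 from zinc in knockout and 1.503 ± 0.058 in wild type on the log2 scale (interaction -2.43 ± 0.080, adjusted p = 8.02e-19, edgeR quasi-likelihood test).

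**Figure D2:**
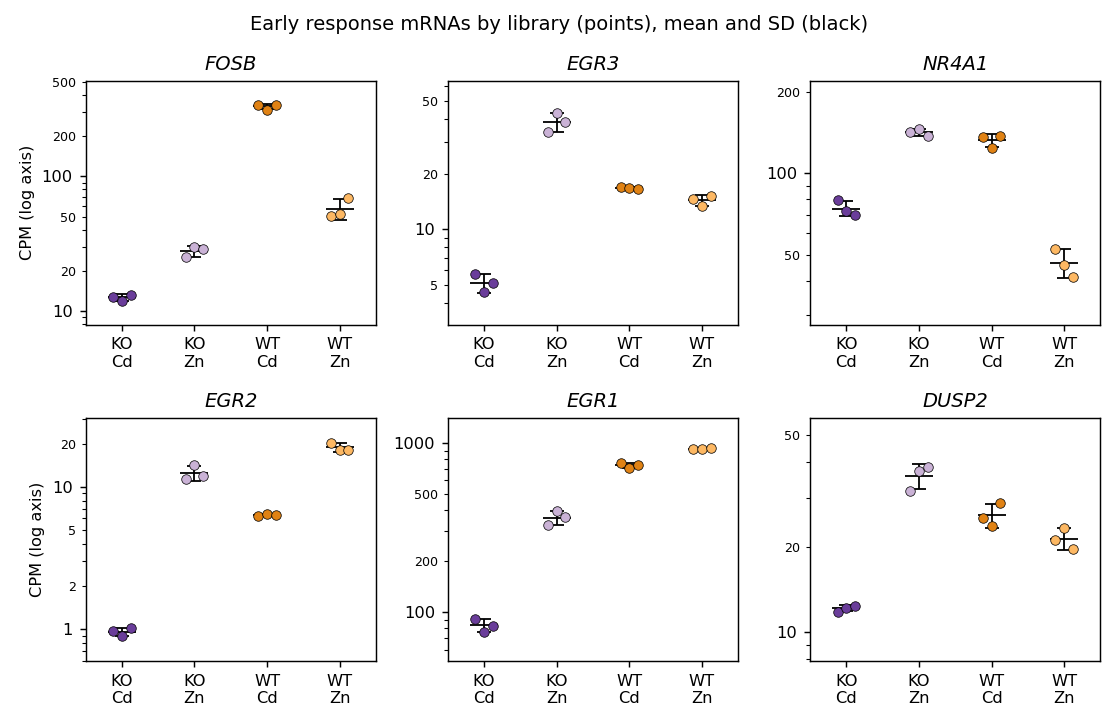
Levels in CPM (log axis) of FOSB, EGR3, NR4A1, EGR2, EGR1 and DUSP2 in each of the 3 libraries of cadmium- and zinc-treated knockout (KO) and cadmium- and zinc-treated wild type (WT), with the mean and SD in black. Cadmium-treated knockout is the lowest group in 5 of the 6 panels, and in the NR4A1 panel the lowest is zinc-treated wild type.

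FOS, which pairs with JUN proteins, averaged 27.2 and 84.5 CPM in cadmium- and zinc-treated knockout and 113 and 140.1 CPM in cadmium- and zinc-treated wild type, an interaction of -1.32, and JUNB averaged 13.5 and 39.1 CPM in cadmium- and zinc-treated knockout and 17.8 and 19.8 CPM in cadmium- and zinc-treated wild type, an interaction of -1.37. IER2 (-1.30), ZFP36, which promotes decay of AU-rich mRNAs (-0.97), BTG2, an antiproliferative cofactor (-0.86 ± 0.071), and IER3 (-1.33 ± 0.093) were also lower. These genes differed in how their metals ranked. Cadmium was above zinc for IER3 in both genotypes and below zinc for ZFP36 and BTG2 in both. CArG boxes were found in the promoters of 3 of the 18 lower members that matched the promoter table, EGR1, EGR2 and SRF, against 1.6% of all genes, and the cAMP element TGACGTCA in 2, JUND and MAFF, against 2.25%.

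DUSP genes encode phosphatases, most of which switch MAP kinases off again, and 6 of 10 had a lower and 2 a higher interaction (median -0.36), against 11.6% and 11.1% of all genes, or 5 and 2 without replicate 3 of zinc-treated wild type. DUSP2 (ENSG00000158050, chromosome 2, 96143166 to 96145440), a nuclear phosphatase, had 11.8, 12.2 and 12.4 CPM in cadmium-treated and 31.6, 37.2 and 38.4 CPM in zinc-treated knockout, against 25.3, 23.7 and 28.7 CPM in cadmium-treated and 21.3, 23.4 and 19.7 CPM in zinc-treated wild type. Cadmium was well below zinc in knockout and slightly above it in wild type (interaction -1.84 ± 0.11, adjusted p = 4.51e-13, edgeR quasi-likelihood test). DUSP1, the most abundant of them, had 2924 to 3063 CPM and 1062 to 1173 CPM in cadmium- and zinc-treated knockout, against 1233 to 1388 CPM and 167 to 278 CPM in cadmium- and zinc-treated wild type. Cadmium was above zinc in both genotypes, by less in knockout (interaction -1.03 ± 0.13, or -0.82 without replicate 3 of zinc-treated wild type). DUSP4, with a lower interaction of -0.67 ± 0.097, and DUSP5, with a higher one of 0.63, moved in opposite directions. The growth factor HBEGF, a ligand of the EGF receptor, had an interaction of -1.004 ± 0.12 (-0.82 without that library).

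The integrated stress response tilted the other way, towards cadmium in knockout. Of 36 listed genes 35 were tested, and 23 had a higher and 3 a lower interaction, against 11.1% and 11.6% of all genes, with a list median of 0.47. The median log2 change from zinc to cadmium was 0.42 in knockout and 0.022 in wild type. Without replicate 3 of zinc-treated wild type 23 were higher and 4 lower. The members include enzymes of serine, glycine and asparagine synthesis (PHGDH 0.46, PSAT1 0.73, ASNS), of mitochondrial folate metabolism (MTHFD2 0.65), tRNA synthetases (AARS1 0.59, CARS1 0.41) and the pseudokinase TRIB3 (0.98). The 3 lower members were PPP1R15A, which directs dephosphorylation of eIF2 alpha (-0.55), ATF3, which is also among the immediate early genes (-0.45), and SLC3A2, the heavy chain of amino acid transporters (-0.35).

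DDIT4 (ENSG00000168209, chromosome 10, 72273920 to 72276036), an inhibitor of mTORC1, had 104, 88.6 and 89.9 CPM in cadmium-treated and 12.1, 12.97 and 11.3 CPM in zinc-treated knockout. In wild type it had 68.0, 60.7 and 62.8 CPM in cadmium and 42.2, 38.4 and 41.4 CPM in zinc. Cadmium was above zinc in both genotypes without overlap, by 2.96 ± 0.066 in knockout and 0.65 ± 0.057 in wild type on the log2 scale, and the interaction of 2.31 ± 0.089 (adjusted p = 2.29e-17, edgeR quasi-likelihood test) was the highest among called genes with a gene symbol and at least 5 CPM. DDIT4 is also a target of other stress factors.

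CHAC1 (ENSG00000128965, chromosome 15, 40952962 to 40956519), which degrades glutathione, had 72.6, 69.3 and 64.1 CPM in cadmium-treated and 15.5, 16.9 and 15.7 CPM in zinc-treated knockout, against 47.9, 49.0 and 47.7 CPM in cadmium-treated and 49.5, 44.1 and 52.9 CPM in zinc-treated wild type. The wild-type groups overlapped and did not pass (log2 change -0.019 ± 0.054), zinc-treated knockout lay lowest and cadmium-treated knockout highest (interaction 2.12 ± 0.082, adjusted p = 2.35e-17, edgeR quasi-likelihood test). STC2 (ENSG00000113739, chromosome 5, 173314713 to 173329503), a secreted glycoprotein, had 104, 106 and 108 CPM in cadmium-treated and 18.3, 17.9 and 16.5 CPM in zinc-treated knockout, against 168, 166 and 172 CPM in cadmium-treated and 96.0, 91.5 and 92.7 CPM in zinc-treated wild type. Again zinc-treated knockout was the group that lay far below the others (interaction 1.74 ± 0.056).

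At ASNS, PCK2 and SESN2 the metals ranked in opposite order. ASNS (ENSG00000070669, chromosome 7, 97852118 to 97872542), asparagine synthetase, had 11.4, 11.3 and 12.2 CPM in cadmium-treated and 6.43, 7.02 and 7.32 CPM in zinc-treated knockout, against 17.3, 19.0 and 17.8 CPM in cadmium-treated and 33.5, 31.2 and 27.0 CPM in zinc-treated wild type. All knockout libraries lay below all wild-type libraries, with cadmium above zinc in knockout (0.75 ± 0.090) and below it in wild type (-0.76 ± 0.067), an interaction of 1.51 ± 0.11 (adjusted p = 6.32e-11, edgeR quasi-likelihood test). SESN2 (ENSG00000130766, chromosome 1, 28259527 to 28282491), a leucine sensor that restrains mTORC1, had 229.7, 221 and 216 CPM in cadmium-treated and 141, 149 and 138 CPM in zinc-treated knockout, against 349, 352 and 350.4 CPM in cadmium-treated and 539.9, 506 and 525 CPM in zinc-treated wild type. It showed the same order of groups as ASNS, with zinc-treated wild type highest and zinc-treated knockout lowest (interaction 1.22 ± 0.046). PCK2, the mitochondrial phosphoenolpyruvate carboxykinase, differed by 0.50 ± 0.074 in knockout and -0.45 ± 0.061 in wild type.

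ATF4 mRNA itself averaged 467 ± 14.8 CPM in cadmium-treated and 492 ± 4.00 CPM in zinc-treated knockout, against 391.7 ± 12.4 CPM in cadmium-treated and 559 ± 3.79 CPM in zinc-treated wild type (SD, n = 3 each), an interaction of 0.44 ± 0.041. Its activity is set largely by translation, which was not measured. A CARE was found in the promoter of 5 of 21 higher members that matched the promoter table (CHAC1, ASNS, CEBPG, AARS1 and CARS1), against 4.46% of all genes. Of 21 genes of the unfolded protein response, the stress programme of the endoplasmic reticulum, 3 were higher and 2 lower (median -0.054). These shares, 14.3% and 9.52%, were near the 11.1% and 11.6% of all genes. The lower members were SDF2L1 (-0.62 ± 0.089) and MANF (-0.44 ± 0.062), and the chaperone HSPA5 did not pass (-0.11). Without replicate 3 of zinc-treated wild type 5 were higher.

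**Figure D3:**
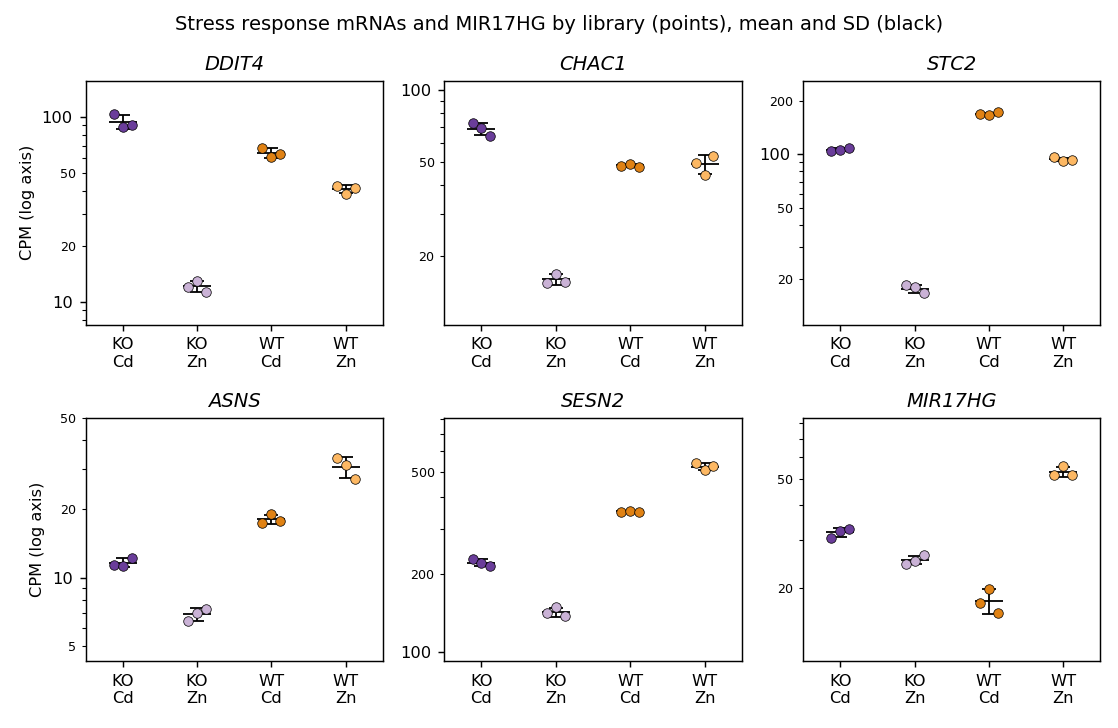
Levels in CPM (log axis) of DDIT4, CHAC1, STC2, ASNS, SESN2 and MIR17HG in each of the 3 libraries of cadmium- and zinc-treated knockout (KO) and cadmium- and zinc-treated wild type (WT), with the mean and SD in black. Zinc-treated knockout is the lowest group in 5 of the 6 panels, and in the MIR17HG panel the lowest is cadmium-treated wild type.

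MIR17HG (ENSG00000215417, chromosome 13, 91347820 to 91354579), the host transcript of the miR-17-92 cluster, whose microRNAs promote proliferation and limit apoptosis, had 30.5, 32.2 and 32.9 CPM in cadmium-treated and 24.5, 25.1 and 26.4 CPM in zinc-treated knockout. In wild type it had 17.6, 19.9 and 16.2 CPM in cadmium and 51.8, 55.6 and 51.6 CPM in zinc. Zinc-treated wild type was the highest group and cadmium-treated wild type the lowest, while the knockout groups lay closer together, giving an interaction of 1.90 ± 0.083 (adjusted p = 4.53e-16, edgeR quasi-likelihood test). The cluster is printed because its members share seeds (bases 2 to 8, in capitals): miR-17-5p and miR-20a-5p share one seed, and miR-19a-3p and miR-19b-3p another. RefSeq places all of them inside the host gene on the plus strand of chromosome 13 (GRCh38.p14).
miR-17-5p: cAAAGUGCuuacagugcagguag
miR-20a-5p: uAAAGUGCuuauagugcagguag
miR-18a-5p: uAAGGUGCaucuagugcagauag
miR-19a-3p: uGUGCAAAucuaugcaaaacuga
miR-19b-3p: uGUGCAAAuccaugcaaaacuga
miR-92a-3p: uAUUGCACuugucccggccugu
The libraries count polyadenylated RNA of the host gene, and the mature microRNAs were not measured.

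For PCDH9, ELAPOR1 and SPACA6, as for MIR17HG, wild type placed zinc far above cadmium. PCDH9 (ENSG00000184226, chromosome 13, 66302834 to 67230445), a neuronal protocadherin, had 38.1, 42.4 and 42.9 CPM in cadmium-treated and 35.1, 36.1 and 40.0 CPM in zinc-treated knockout, against 6.68, 9.48 and 9.33 CPM in cadmium-treated and 24.8, 26.9 and 24.0 CPM in zinc-treated wild type. The knockout groups overlapped and did not pass, while cadmium-treated wild type stood lowest (interaction 1.72 ± 0.11). ELAPOR1 (interaction 2.31 ± 0.23) averaged 1.97 ± 0.122 CPM and 5.64 ± 0.279 CPM in cadmium- and zinc-treated knockout, against 0.807 ± 0.319 CPM and 11.7 ± 1.08 CPM in cadmium- and zinc-treated wild type (SD, n = 3 each), and its interaction was 2.94 on counts of the strand that holds most reads. SPACA6, a sperm protein needed for fertilization, gave 1.71 ± 0.18. SLC16A4-AS1, an antisense RNA, gave 1.38 ± 0.12, or 1.37 on counts of its own strand. BMP2, a bone morphogenetic protein, had 29.8 to 33.0 CPM and 24.7 to 28.1 CPM in cadmium- and zinc-treated knockout, but 0.0897 to 0.132 CPM and 0.192 to 0.367 CPM in cadmium- and zinc-treated wild type. Its interaction of 1.37 ± 0.49 (adjusted p = 0.0445, edgeR quasi-likelihood test) rests on a few reads in wild type and lost its call in 10 of 21 alternative settings.

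Heat shock genes showed a split pattern. Of 33 listed genes, all tested, 10 had a lower and 5 a higher interaction (median -0.051), or 10 and 7 without replicate 3 of zinc-treated wild type. These are 30.3% lower and 15.2% higher, against 11.6% and 11.1% of all genes, and the higher share is near that background. The inducible HSP70 genes were lower, and the higher members included the constitutive cytosolic chaperones HSPA8 (0.23) and HSP90AB1 (0.24), and DNAJB4 (0.44). HSPA6 (ENSG00000173110, chromosome 1, 161524540 to 161526910), a strictly inducible HSP70, had 2128, 1977 and 1992 CPM in cadmium-treated and 1412, 1310.4 and 1195 CPM in zinc-treated knockout, against 1091, 1044 and 1222 CPM in cadmium-treated and 324, 298 and 198 CPM in zinc-treated wild type. Cadmium exceeded zinc in both genotypes without overlap, by 0.64 ± 0.090 in knockout and 2.03 ± 0.095 in wild type on the log2 scale, and zinc-treated wild type was the lowest group. The interaction was -1.39 ± 0.13 (adjusted p = 4.57e-09, edgeR quasi-likelihood test), or -1.21 without replicate 3 of zinc-treated wild type. HSPA7 (-1.23 ± 0.16) is a near copy of HSPA6, and the split of reads between them is uncertain.

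HSPA1A (ENSG00000204389, chromosome 6, 31815464 to 31817946), an inducible HSP70, had 90.1, 88.1 and 89.3 CPM in cadmium-treated and 188, 166 and 151 CPM in zinc-treated knockout, against 12.7, 12.2 and 14.3 CPM in cadmium-treated and 16.3, 15.5 and 13.4 CPM in zinc-treated wild type. Here cadmium lay below zinc in knockout (-0.92 ± 0.055) and the wild-type groups overlapped (-0.21 ± 0.089), an interaction of -0.71 ± 0.10. Its near-identical neighbour HSPA1B, which carried most of the reads, averaged 6101 and 6751 CPM in cadmium- and zinc-treated knockout and 4684 and 4282 CPM in cadmium- and zinc-treated wild type (interaction -0.28), and the share of reads between them is uncertain. DNAJB1, the HSP40 partner of HSP70, had an interaction of -0.29, and the small heat shock protein CRYAB one of -1.33 at under 6 CPM in every group mean. HSF1 mRNA did not pass (-0.024 ± 0.068, 95% interval -0.16 to 0.12). A heat shock element was found in the promoters of 3 of the 8 lower members that matched the promoter table (HSPA6, DNAJB6 and CHORDC1) and in 2 of 4 higher ones (HSPA8 and HSP90AB1), against 0.608% of all genes. Proteasome subunits had 0 higher and 5 lower of 31 (median -0.047), 16.1% lower against 11.6% of all genes, among them PSMD7 (-0.20 ± 0.050) and PSMD12 (-0.20 ± 0.041). With library-size or upper-quartile scaling 2 were lower and 1 higher.

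YAP/TAZ targets leaned towards zinc in knockout relative to wild type: 11 of 25 had a lower and 1 a higher interaction (median -0.11). The shares over all genes were 11.6% and 11.1%, and the list's counts were the same without replicate 3 of zinc-treated wild type. Within knockout 12 members passed with cadmium above zinc and 5 with cadmium below it. The median log2 change from zinc to cadmium was 0.14 in knockout and 0.17 in wild type. The list includes LATS2, one of the knocked-out genes. ANKRD1 (ENSG00000148677, chromosome 10, 90912096 to 90921276), a nuclear ankyrin repeat protein of muscle and a much used YAP reporter, had 3978, 3886 and 3987 CPM in cadmium-treated and 2564, 2425 and 2369 CPM in zinc-treated knockout, against 1762, 1726 and 1765 CPM in cadmium-treated and 516, 526 and 231 CPM in zinc-treated wild type. The knockout was above wild type in either metal, and cadmium above zinc in either genotype, by 0.69 ± 0.14 in knockout and 2.05 ± 0.15 in wild type. The interaction was -1.36 ± 0.20 (adjusted p = 8.42e-06, edgeR quasi-likelihood test), and -1.06 without replicate 3 of zinc-treated wild type, the lowest of its group.

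CCN1 (ENSG00000142871, chromosome 1, 85580761 to 85583962), a secreted matricellular protein, had 767, 748 and 770.2 CPM in cadmium-treated and 373, 373 and 401 CPM in zinc-treated knockout, against 517, 519 and 469 CPM in cadmium-treated and 137, 164 and 96.6 CPM in zinc-treated wild type. Its groups kept the order of ANKRD1 within each genotype, with an interaction of -0.93 ± 0.12, or -0.74 without that library. CCN2, its relative, averaged 395 and 278 CPM in cadmium- and zinc-treated knockout and 271 and 104 CPM in cadmium- and zinc-treated wild type (interaction -0.88). TGFB2 (-0.89), AMOTL2 (-0.48 ± 0.052) and DLC1 (-0.42) were lower too, AMOTL1 was higher (0.25), and AJUBA (-0.11), TEAD1 (-0.0030) and AXL (0.092) did not pass. The TEAD core was found in the promoters of 6 of the 8 lower members that matched the promoter table, against 16.7% of all genes. Members without a call were not counted, so this share describes a list of known targets and not the interaction.

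The mRNAs of the coactivators themselves differed little. YAP1 had an interaction of 0.16 ± 0.050 (adjusted p = 0.0199, edgeR quasi-likelihood test), which lost its call in 6 of 21 alternative settings, and WWTR1, which encodes TAZ, did not pass (-0.085 ± 0.064, 95% interval -0.22 to 0.046). Among 24 Hippo components 7 were higher and 3 lower (29.2% and 12.5%, median 0.016), against 11.1% and 11.6% of all genes. Without replicate 3 of zinc-treated wild type 8 were higher and 4 lower. With all libraries the highest was the atypical cadherin FAT1 (0.40 ± 0.060). LATS1 did not pass (-0.10 ± 0.057, 95% interval -0.22 to 0.018), and LATS2 had a lower interaction (-0.39 ± 0.080). Targets of serum response factor in the cytoskeleton had 8 lower and 2 higher of 15 (53.3% and 13.3%, median -0.14), against 11.6% and 11.1% of all genes. Without replicate 3 of zinc-treated wild type 7 were lower and 2 higher, and with all libraries DESeq2 called 1 higher. CNN1, a smooth muscle calponin, averaged 6.54 ± 0.502 CPM and 5.53 ± 0.452 CPM in cadmium- and zinc-treated knockout, against 6.46 ± 0.376 CPM and 1.87 ± 0.731 CPM in cadmium- and zinc-treated wild type (SD, n = 3 each). Its interaction was -1.55 ± 0.21, that of the actin-binding TAGLN -1.03 ± 0.13, and that of the tropomyosin TPM2 was positive (0.64 ± 0.11).

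**Figure D4:**
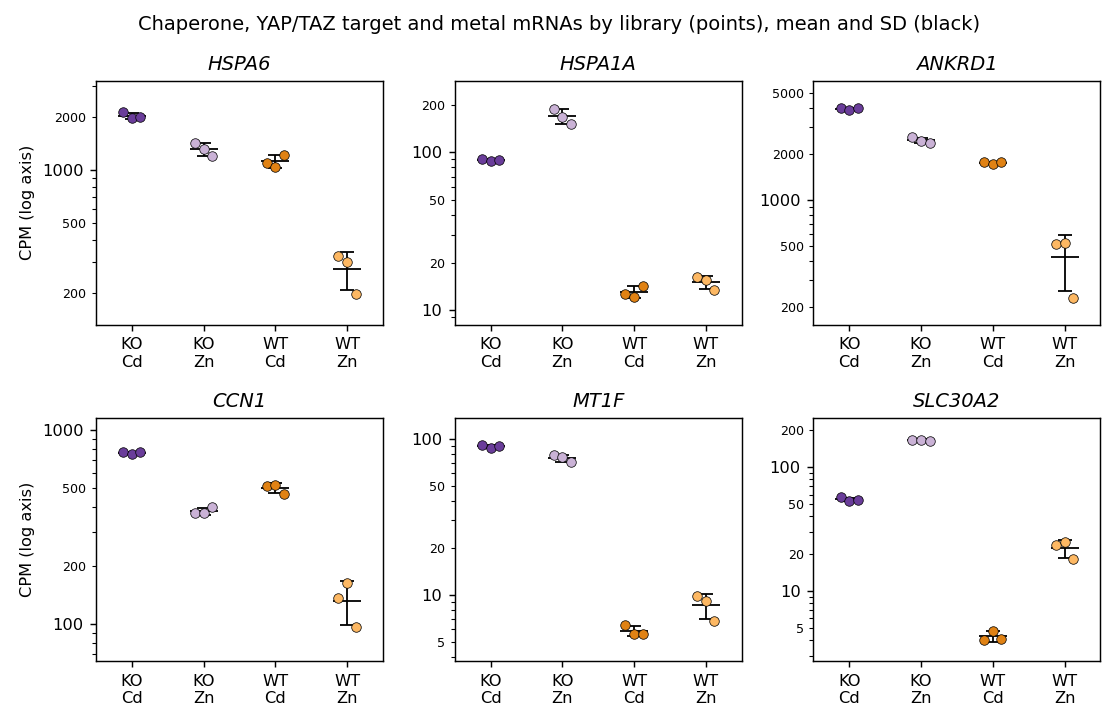
Levels in CPM (log axis) of HSPA6, HSPA1A, ANKRD1, CCN1, MT1F and SLC30A2 in each of the 3 libraries of cadmium- and zinc-treated knockout (KO) and cadmium- and zinc-treated wild type (WT), with the mean and SD in black. Zinc-treated wild type is the lowest group for HSPA6, ANKRD1 and CCN1, with replicate 3 its lowest library, and cadmium-treated wild type is the lowest for MT1F and SLC30A2.

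Of the 12 metallothionein genes, 6 passed the filter on low counts. Of these 2 had a higher and 0 a lower interaction, against 11.1% and 11.6% of all genes (median of the 6 tested 0.69, against 0.014 over all genes). At an unadjusted p under 0.05 the counts were 4 and 0, DESeq2 also called 2 and 0, and without replicate 3 of zinc-treated wild type 4 were higher (edgeR). MT1F (ENSG00000198417, chromosome 16, 56657694 to 56660698) had 90.8, 87.3 and 89.3 CPM in cadmium-treated and 78.2, 76.3 and 70.7 CPM in zinc-treated knockout, against 6.38, 5.598 and 5.62 CPM in cadmium-treated and 9.74, 9.16 and 6.78 CPM in zinc-treated wild type. Cadmium was slightly above zinc in knockout and below it in wild type, and every knockout library was far above every wild-type library (interaction 0.79 ± 0.12, adjusted p = 8.59e-06, edgeR quasi-likelihood test). MT1X (ENSG00000187193, chromosome 16, 56682424 to 56684196) had 421, 402 and 396 CPM and 367, 384 and 374 CPM in cadmium- and zinc-treated knockout, against 236, 229 and 228 CPM and 292, 299.5 and 260.3 CPM in cadmium- and zinc-treated wild type, the same order of metals (interaction 0.41 ± 0.053). MT2A, the most abundant, averaged 1023 ± 31.2 CPM and 1264 ± 49.3 CPM in cadmium- and zinc-treated knockout, against 702 ± 35.0 CPM and 935 ± 94.2 CPM in cadmium- and zinc-treated wild type (SD, n = 3 each), with zinc above cadmium in both genotypes and no interaction call (0.11 ± 0.065, 95% interval -0.025 to 0.24). Without replicate 3 of zinc-treated wild type MT2A was called, at 0.19 (adjusted p = 0.00237, edgeR quasi-likelihood test), and so was MT1G, at 1.38 (adjusted p = 0.0223). With all 12 libraries MT1G and MT1B, under 11 CPM in every library, did not pass (1.07 ± 0.44 and 1.70 ± 0.78), nor did MT1H (0.60 ± 1.11), and the split of reads among these similar genes is uncertain. Of the 2 higher members only MT1X matched the promoter table, so MT1F was not searched. The metal response element (TGCACNC or TGCGCNC) was found in the promoter of MT1X, and in 33.4% of all genes.

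Among the 10 SLC30 genes, most of which move zinc out of the cytosol, 2 were higher and 2 lower (median 0.010), against 11.1% and 11.6% of all genes. Without replicate 3 of zinc-treated wild type 1 was higher and 2 lower. SLC30A2 (ENSG00000158014, chromosome 1, 26037252 to 26046133), a zinc transporter of vesicles, had 57.0, 53.8 and 54.0 CPM in cadmium-treated and 165, 167 and 162 CPM in zinc-treated knockout, against 4.05, 4.77 and 4.07 CPM in cadmium-treated and 23.5, 24.9 and 18 CPM in zinc-treated wild type. Zinc exceeded cadmium in both genotypes without overlap, by a smaller ratio in knockout (-1.58 and -2.36 on the log2 scale in knockout and wild type, interaction 0.78 ± 0.12). SLC30A1, the exporter of the plasma membrane, averaged 640.4 ± 21.8 CPM and 677 ± 17.5 CPM in cadmium- and zinc-treated knockout, against 1002 ± 19.1 CPM and 1007 ± 48.8 CPM in cadmium- and zinc-treated wild type, and did not pass (95% interval -0.17 to 0.018). SLC30A9 was higher (0.13 ± 0.047), a call lost in 13 of 21 alternative settings, SLC30A7 (-0.34 ± 0.073) and SLC30A3 (-0.71 ± 0.21) were lower, and SLC30A4, SLC30A5, SLC30A6, SLC30A8 and SLC30A10 did not pass. Of the 12 SLC39 importers tested (median -0.014), 2 were lower, SLC39A3 (-0.44 ± 0.090) and SLC39A14 (-0.14 ± 0.041), and 0 higher. The lower share of 16.7% was near the 11.6% of all genes. MTF1, the metal sensor, averaged 34.0 ± 0.589 CPM and 59.3 ± 1.604 CPM in cadmium- and zinc-treated knockout, against 49.6 ± 1.42 CPM and 67.9 ± 4.18 CPM in cadmium- and zinc-treated wild type, an interaction of -0.35 ± 0.064.

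Regulators of the oxidative stress response leaned towards zinc in knockout relative to wild type, and calls among the targets ran both ways. Of 9 regulators 5 were lower and 2 higher, against 11.6% and 11.1% of all genes (median -0.35, or -0.27 without replicate 3 of zinc-treated wild type). The small Maf proteins, partners of NRF2, included MAFF (-1.10 ± 0.065) and MAFK (-0.59 ± 0.067), with MAFG not passing, while BACH2 (-0.66 ± 0.073) and BACH1 (-0.35) are repressors at the same sites. NFE2L2, which encodes NRF2, averaged 102 ± 4.31 CPM and 105 ± 3.02 CPM in cadmium- and zinc-treated knockout, against 168 ± 6.22 CPM and 134 ± 4.15 CPM in cadmium- and zinc-treated wild type (interaction -0.36 ± 0.053). KEAP1, the adaptor that leads NRF2 to degradation, was higher (0.29). Of 26 NRF2 targets tested, 5 were higher and 4 lower (median 0.020), with the cystine transporter SLC7A11 at 0.57 ± 0.078, the thioredoxin reductase TXNRD1 at -0.30 and the heme oxygenase HMOX1 not passing (0.16).

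Growth and housekeeping lists are to be read against the 11.1% higher and 11.6% lower of all genes. Ribosome biogenesis genes had 0 higher and 13 lower of 24 (median -0.21, or -0.23 without replicate 3 of zinc-treated wild type): cadmium stood above zinc in wild type for NOP16 (1.05 ± 0.047), PPAN (1.55 ± 0.11) and RRS1 (1.46 ± 0.052), which assemble the large ribosomal subunit, and by less in knockout (0.39 ± 0.049, 0.34 ± 0.13 and 0.80 ± 0.052). The value for NOP16 is uncertain, since 28.4% of its counts lay on the other strand, and so is that for PPAN, which shares exons with an annotated read-through gene. Mitotic genes had 9 higher and 2 lower of 19 (median 0.15), led by the checkpoint kinase TTK (0.53 ± 0.056), the kinesin CENPE (0.43 ± 0.058) and the topoisomerase TOP2A (0.43 ± 0.048). Of the 13 mitochondrially encoded mRNAs 8 were lower and 1 higher (median -0.13), or 6 and 1 without replicate 3 of zinc-treated wild type. The largest interactions were at MT-ND6 (-0.34 ± 0.051) and MT-ND5 (-0.29 ± 0.047), 2 genes on opposite strands next to each other. Both values are uncertain: 67.5% of the counts of MT-ND6 and 30.0% of those of MT-ND5 lay on the other strand, and on counts of their own strand the interactions were -0.37 and -0.21. Splicing factors of the CLK and SR families had 4 higher and 7 lower of 15 (median -0.049), with SRSF5 (0.51 ± 0.048) and CLK2 (0.49 ± 0.11) at one end and CLK4 (-0.41 ± 0.090) and CLK1 (-0.36) at the other.

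In the remaining lists, read against the same shares, the calls were few or ran both ways, with medians from -0.18 for Notch genes to 0.16 for SOX factors. Higher and lower members numbered 6 and 2 of 17 for hypoxia genes, 4 and 5 of 22 for cholesterol synthesis, 3 and 6 of 25 for p53 targets, 5 and 4 of 14 for Notch genes, 2 and 4 of 26 for DNA replication and 1 and 4 of 16 for NF-kB targets. They numbered 2 and 1 of 14 for the BCL2 family, 1 and 3 of 11 for BMP and ID genes, 2 and 3 of 10 for SOX factors, 0 and 2 of 13 for replication-dependent histones and 0 and 2 of 9 for EGF family members and their receptors. Without replicate 3 of zinc-treated wild type the median of the NF-kB list was 0.035, against -0.099 with it, with 2 higher members, that of cholesterol synthesis was -0.040, against -0.016, and 2 BCL2 family members were lower. Single members moved well beyond their lists. ID3, an inhibitor of basic helix-loop-helix factors, had an interaction of -1.21 ± 0.12 (-1.03 without replicate 3 of zinc-treated wild type), IDI1 of cholesterol synthesis -0.74 ± 0.059, ADM, a vasodilator peptide, -0.90 ± 0.076, the sterol regulator SREBF1 0.71 ± 0.091, with 18.2% of its counts on the other strand, and the receptor NOTCH3 0.55 ± 0.10. Of the HEK293 markers 3 of 9 tested were higher, LIN28B (0.31 ± 0.053), CDH2 (0.22 ± 0.049) and NEFL (0.21 ± 0.070), the last with its call lost in 10 of 21 settings. Of 6 fibroblast markers 1 was higher, PDGFRA, with group means of 1.38 to 2.14 CPM, and 0 of 4 epithelial and 0 of 2 blood markers tested were called by edgeR or DESeq2, or passed at an unadjusted p under 0.05. Where edgeR called 0 members higher, the members higher at an unadjusted p under 0.05 numbered 1 for ribosome biogenesis, 1 for the proteasome, 2 for SLC39 importers, 2 for histones and 0 for the EGF family, and DESeq2 called 0 in each. PDGFRA was not called by DESeq2, and 0 HEK293 and 0 fibroblast markers were lower by either tool or at an unadjusted p under 0.05.

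**Figure D5:**
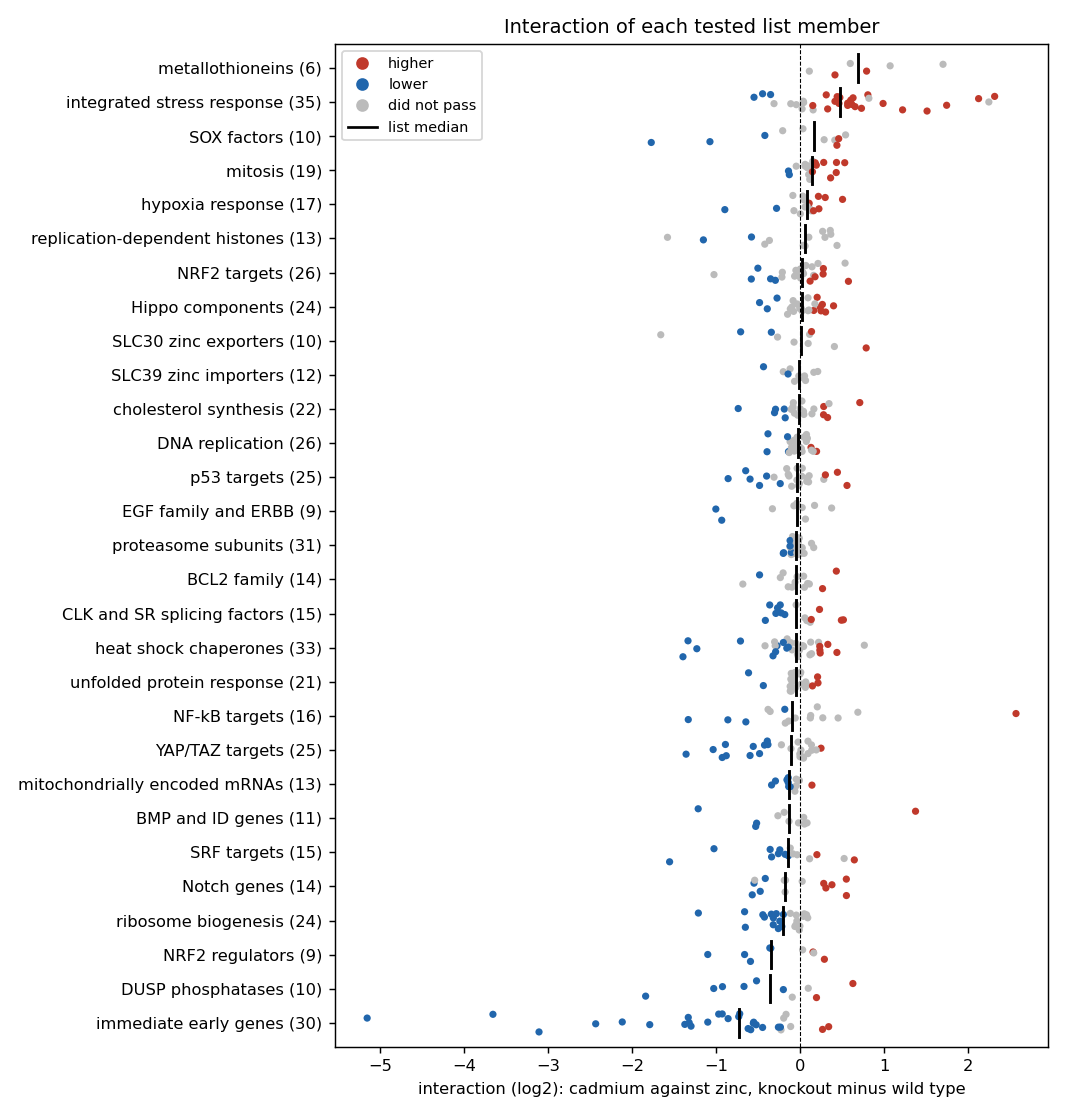
Interaction of each tested member (points; red higher, blue lower, grey not passing the test) of the gene lists, with the list's median as a black bar and the number tested in parentheses. The integrated stress response lies mostly right of 0 (median 0.47) and immediate early genes mostly left of it (median -0.73).

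Among the 409 genes with opposite rankings, those with the largest smaller change included factors outside these lists. ZNF184 (ENSG00000096654, chromosome 6, 27450743 to 27473118), a zinc finger protein, had 13.9, 14.5 and 13.1 CPM in cadmium-treated and 22.4, 21.8 and 23.4 CPM in zinc-treated knockout, against 42.9, 43.9 and 41.6 CPM in cadmium-treated and 24.4, 26.4 and 25.6 CPM in zinc-treated wild type. Cadmium was below zinc in knockout (-0.71 ± 0.059) and above it in wild type (0.75 ± 0.050). OLIG2, a factor of the oligodendrocyte lineage, gave -0.61 and 0.59 in knockout and wild type, and the pseudokinase TRIB1 -0.56 and 0.72. In the other direction RNPC3, a protein of the minor spliceosome, gave 0.62 and -0.44, and the solute carrier SLC22A15 0.42 and -0.48. RNF122 (-2.01 ± 0.14) and CNKSR1 (-1.45 ± 0.16) also had opposite rankings and were among the 10 lowest interactions.

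Other genes separated the metals strongly in both genotypes and had no interaction call. RAB39B was higher in cadmium by 2.76 ± 0.16 in knockout and 2.63 ± 0.12 in wild type, with a 95% interval of -0.33 to 0.60 for the interaction, and RAB39A, its paralog, by 1.95 ± 0.15 and 2.07 ± 0.091 (interval -0.53 to 0.29). TEX19 was higher in cadmium by 1.99 ± 0.11 and 2.08 ± 0.13 (interval -0.46 to 0.27). CREBRF, a regulator of the unfolded protein response, was lower in cadmium, -1.56 ± 0.069 in knockout and -1.74 ± 0.060 in wild type (interval -0.016 to 0.37), as were the zinc finger genes ZNF160 (-1.63 ± 0.045 and -1.74 ± 0.049, interval -0.030 to 0.25) and ZNF836 (-2.07 ± 0.088 and -1.77 ± 0.14, interval -0.66 to 0.061). A gene that does not pass is not shown to respond alike: these intervals reach as far as -0.66 on the log2 scale, at ZNF836.

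Gene structure differed between the classes of called genes. Protein-coding genes with a higher interaction had a median span of 59.4 kb and 14 exons in the transcript with most exons, those with a lower interaction 22.1 kb and 7 exons, and those not passing 33.1 kb and 9 exons. The share of protein-coding genes was 87.9%, 91.2% and 71.9% in these classes, and their median levels were 51.1, 39.7 and 17.5 CPM. Of the genes reaching 2-fold, 37% of the higher and 62.6% of the lower ones were protein-coding. These protein-coding genes had a median span of 23.5 kb with 7 exons (higher) and 14.3 kb with 5 exons (lower). Higher ones were thus again longer than lower ones, but shorter than higher genes of any size. Their median levels were low, 1.03 CPM (higher) and 1.91 CPM (lower). Span, exon number and level differ together, and their part in the result was not tested.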

How the data were processed

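Stranded poly(A) sequencing gave 18 libraries, 3 per genotype and treatment, with TRIzol extraction and TruSeq stranded mRNA libraries per the labels' protocols. The authors deposited whole-number read counts per gene, not normalized. STAR, hg38 and GRCh38.p13 are named, per the submitters' processing notes. A version of STAR, the counter and the gene models were not given in the sources used here. In all 18 libraries the deposited count table equals the deposited counts made without regard to strand. It is not the sum of the deposited counts per strand. Relative to the table's totals, counts of the minor strand were 5.24% to 5.94% and those of the major strand 102.9% to 103.6%. Of 58336 gene IDs, 58216 matched GENCODE 29, which gave symbols and coordinates (GRCh38).

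The 12 metal-treated libraries were fitted in edgeR 4.0.16 (R 4.3.3, limma 3.58.1): genes kept by filterByExpr with a minimum count of 10, TMM scaling, 1 mean per group, and quasi-likelihood tests of the interaction and of cadmium against zinc in each genotype, with Benjamini-Hochberg adjustment over 19009 genes and a threshold of 0.05. All adjusted p-values are from this edgeR fit. Values after ± are standard errors for log2 differences and SD for CPM. The median biological coefficient of variation was 4.14%, and counting error weighs more the lower a gene's level. Alternatives were DESeq2 1.42.0, limma-voom, library-size and upper-quartile scaling, no filter, a 5 CPM filter, the replicate number as a block, all 18 libraries, major-strand counts, and each library left out in turn. The procedure was also run on simulated counts with independent libraries and the spread of this fit, and no statement here rests on that run.

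Named genes had an adjusted p under 0.05 and at least 5 CPM: the 10 highest and 10 lowest interactions, the 5 with opposite rankings and the largest smaller change in each direction, and the 3 largest of each list; to these were added the 3 highest and 3 lowest genes with equal signs and no interaction call, and metallothioneins, SLC30 genes, LATS1, LATS2, MTF1, HSF1, NFE2L2, ATF4, YAP1 and WWTR1. Other list members were named after their values were seen. The contrast, the lists and the tests were chosen with earlier results of these data known. The 33 lists hold 596 memberships, 556 of them tested, and a few genes belong to more than 1 list. Counts of near-identical genes, such as the MT1 genes, histones and the HSP70 pairs, are uncertain.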

Additional observations from a re-analysis of the deposited data

Results flagged for a closer look

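For 26 of the genes named in the report, the interaction itself passed the test and was either among the 10 highest or lowest or had opposite rankings of the metals, so that the genotypes differed in their response under the same contrast (adjusted p under 0.05, edgeR quasi-likelihood test; 3 libraries per group). The interactions tilted towards cadmium in knockout relative to wild type were DDIT4 2.31, ELAPOR1 2.31, CHAC1 2.12, MIR17HG 1.90, STC2 1.74, PCDH9 1.72, SPACA6 1.71, ASNS 1.51, SLC16A4-AS1 1.38, BMP2 1.37, SESN2 1.22, RNPC3 1.07, PCK2 0.95 and SLC22A15 0.90. Those tilted towards zinc were OLIG2 -1.19, TRIB1 -1.29, CNKSR1 -1.45, ZNF184 -1.45, CNN1 -1.55, EGR1 -1.79, DUSP2 -1.84, RNF122 -2.01, EGR2 -2.12, NR4A1 -2.43, EGR3 -3.11 and FOSB -3.65. Without replicate 3 of zinc-treated wild type CNN1 had -1.26, TRIB1 -1.09, FOSB -3.81 and ASNS 1.59, all called. No group here has 4 or more libraries, so single libraries were not tested as outliers.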

How the results depend on the processing

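The number of genes with an interaction call, 4323 as reported, was 4304 with library-size scaling, 4320 with upper-quartile scaling, 3779 with DESeq2, 4226 with limma-voom, 3937 without the filter, 4106 with the 5 CPM filter, 4571 with all 18 libraries and 4400 on major-strand counts. With the replicate number as a block it was 4841, of which 4319 were shared with the reported calls. The numbers were not taken to pair the libraries, which would need all 18 same-numbered pairs to have deviations correlated above 0.1: 11 did (range -0.0625 to 0.331, median 0.106, against -0.054 for 36 pairs of different number). As a hint from the data and not the design, 12 of 12 libraries correlated best with their own number. Leaving out 1 library gave 3618 to 4511 calls, the highest without replicate 3 of zinc-treated wild type, which shared 3942. The share of higher among all calls was 48.8% as reported and ranged from 39.9% to 51.6%. Of 107 named genes with a call, 10 lost it under some alternative, most often SLC30A9, BMP2, NEFL, PSMC5 and YAP1, and 0 reversed.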

Other observations

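The water-treated libraries, which the contrast does not use, give the level of the genes described above without added metal (CPM scaled over all 18 libraries, mean ± SD, n = 3 each). Most immediate early genes shown were low in water: FOSB averaged 1.55 ± 0.0653 CPM in knockout and 1.37 ± 0.253 CPM in wild type, EGR1 6.03 ± 1.02 CPM in knockout and 7.73 ± 0.634 CPM in wild type, and EGR3 0.947 ± 0.331 CPM in knockout and 0.847 ± 0.132 CPM in wild type. In both genotypes the lower of the cadmium and zinc means at these genes was still above the mean in water. DDIT4 averaged 12.3 ± 0.855 CPM in zinc-treated knockout, against 12.4 ± 0.711 CPM in water-treated knockout, and its level in water-treated wild type was 5.95 ± 3.42 CPM. STC2 averaged 17.9 ± 0.982 CPM in zinc-treated knockout, against 23.0 ± 0.661 CPM in water-treated knockout, and its level in water-treated wild type was 30.9 ± 2.17 CPM. MIR17HG averaged 28.5 ± 1.30 CPM in water-treated knockout and 18.9 ± 0.53 CPM in water-treated wild type. HSPA6 averaged 1.78 ± 0.423 CPM in water-treated knockout and 2.53 ± 1.251 CPM in water-treated wild type, while ANKRD1 averaged 431 ± 21.7 CPM in water-treated knockout and 46.7 ± 4.37 CPM in water-treated wild type. MT1F averaged 1.74 ± 0.233 CPM in knockout and 0.36 ± 0.116 CPM in wild type in water, and SLC30A2 1.70 ± 0.0529 CPM in knockout and 0.28 ± 0.391 CPM in wild type. These levels are given without a test.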
